A study of Arabidopsis thaliana with 22 samples.

Results

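Genes of the Arabidopsis inflorescence were sorted by 2 histone marks, H3K4me3 and H3K27me3, which are trimethyl groups on different lysines of the histone H3 tail. The tissue was the wild-type main inflorescence of the Landsberg erecta accession, trimmed of all flowers past stage 12. Each mark had 2 biological replicates, so 4 of the 16 chromatin immunoprecipitation (ChIP-seq) libraries of the series entered. The deposited values were islands, stretches of the genome in which ChIP reads exceeded a control. A protein-coding gene counted as marked where its body had 200 bp or more under islands in both replicates of a mark. Of 27432 genes, 14947 carried H3K4me3 alone, 5934 carried H3K27me3 alone, 1193 carried both and 5358 carried neither. Those counts were 54.5%, 21.6%, 4.35% and 19.5% of all genes, and the same shares serve below as the background for gene lists. H3K4me3 lay on 58.8% of genes and H3K27me3 on 26%, counted with or without the other mark. With 2 libraries per mark, the smallest exact p for a difference between paired replicates is 0.5, so class counts and read densities are given as values, without a test.

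H3K4me3 is placed by Trithorax-type methyltransferases around the start of transcribed genes. H3K27me3 is placed by Polycomb repressive complexes and is known in plants for covering whole genes of development that are silent in a tissue. A young inflorescence holds meristems and flower buds of many ages, in which a regulator such as a floral organ identity gene is active in some cells and silent in others. The libraries were made from whole tissue, so both marks in the same cell and each mark in different cells cannot be told apart.

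The 2 marks had islands of different widths. H3K4me3 islands numbered 15320 in replicate 1 and 15657 on nuclear chromosomes in replicate 2, and had a median width of 1000 bp in each. H3K27me3 islands numbered 7931 and 8048, with a median width of 1600 bp in replicate 1 and 2200 bp in replicate 2. Islands of 5 kb or more were 0.124% and 0.102% of H3K4me3 islands against 8.56% and 18.6% of H3K27me3 islands. These wide islands held 27.8% of the H3K27me3 length in replicate 1 and 48.2% in replicate 2. The widest H3K27me3 island lay at the same place in both replicates, at chr3:7714401-7765400 in replicate 1 and chr3:7714001-7772400 in replicate 2 (TAIR10). It touched 18 genes in replicate 1 and 21 in replicate 2, starting at AT3G21900 in each. About 80% of H3K4me3 islands touched a single gene, 80.4% and 79.9%, against 64.8% and 54.5% of H3K27me3 islands. Islands that touched no protein-coding gene were 2.58% and 2.55% of the H3K4me3 islands, and 18.8% and 21.0% of the H3K27me3 islands.

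Depth differed between replicates, as read from the reads inside islands. For H3K4me3 it was 8461110 reads in replicate 1 and 17246437 in replicate 2, and for H3K27me3 3779918 and 19379225. H3K4me3 islands of the 2 replicates overlapped with a Jaccard index (shared length over joined length) of 0.800, and those of H3K27me3 with 0.591. Of the genes with H3K27me3 in replicate 1, 93.8% had it in replicate 2, and 81.3% of those of replicate 2 had it in replicate 1. Genes marked in the deeper replicate 2 alone numbered 1642 for H3K27me3 and 825 for H3K4me3, against 475 and 420 in replicate 1 alone. The part that depth played in these differences was not tested.

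**Figure D1:**
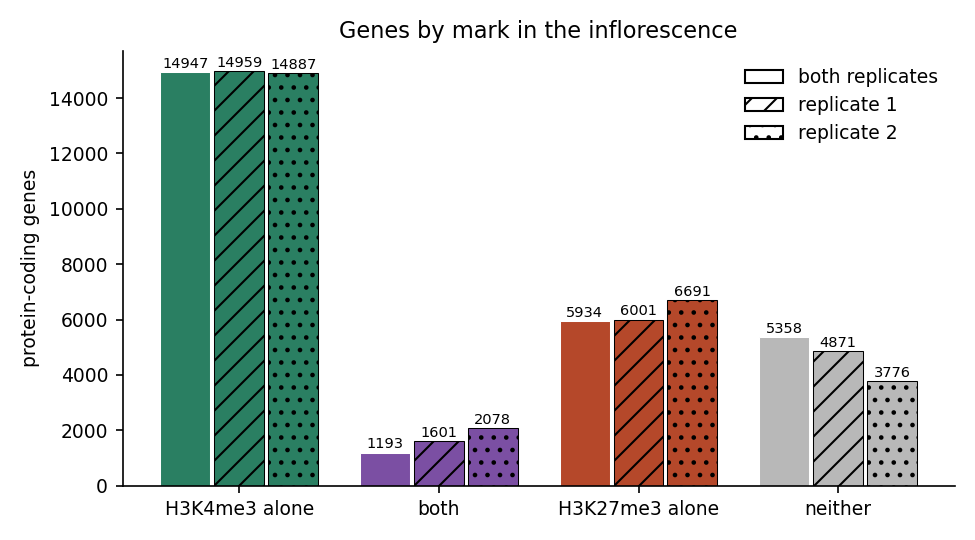
Number of protein-coding genes (y axis) with H3K4me3 alone, both marks, H3K27me3 alone or neither (x axis), requiring the mark in both replicates (plain bars), or counting replicate 1 (hatched) or replicate 2 (dotted) by itself. Genes with both marks number 1193 when required in both replicates, 1601 in replicate 1 and 2078 in replicate 2, while H3K4me3 alone stays between 14887 and 14959.

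The marks largely kept apart along the genome. Islands of the 2 marks shared 1.16 Mb in replicate 1 and 1.54 Mb in replicate 2. The shared length was 6.69% and 8.13% of the H3K4me3 islands, and 6.65% and 6.00% of the H3K27me3 islands. Counted by gene, the 1193 genes with both were 7.39% of genes with H3K4me3 and 16.7% of genes with H3K27me3. This class depends on islands of low fold. With islands of at least 2-fold over control alone, 594 genes had both marks, 49.8% of the 1193, and with either replicate sufficing the count was 2558. Of the 1193, 379 kept H3K27me3 alone at 2-fold, 155 kept H3K4me3 alone and 65 had neither. The median fold of H3K4me3 islands was 5.1 in replicate 1 and 2.8 in replicate 2, and of H3K27me3 islands 3.7 and 3.0. A 2-fold minimum therefore lies closer to the median island in replicate 2.

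The classes differed in gene length, and a fixed minimum of 200 bp is easier to reach on a long gene. Genes with H3K4me3 alone had a median length of 2517 bp, those with both marks 2108 bp, those with H3K27me3 alone 1582 bp and those with neither 1232 bp. Genes with a symbol of their own, a rough sign of having been studied, made up 49.8% of the genes with both marks. They were 43.5% of genes with H3K4me3 alone, 33.9% with H3K27me3 alone and 23.4% with neither. Across the 5 chromosomes the share of genes with both marks ranged from 4.07% to 4.87%, and that with H3K4me3 alone from 51.2% to 55.6%. Near the threshold, 44 genes had their smaller H3K4me3 overlap of the 2 replicates between 200 and 219 bp and 15 between 180 and 199 bp, and the counts for H3K27me3 were 45 and 21.

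The position of the marks on a gene also differed by class. No strand was used here, so each gene of at least 1000 bp with H3K4me3 was turned to start at the end nearer its replicate 1 H3K4me3 islands, and H3K4me3 is read from replicate 2. The turning itself places H3K4me3 at that end, so its height there is no finding. The body was split into 20 equal bins. The percentage of genes under an island in a bin was averaged within 4 equal stretches, counted from that end. On 14284 genes with H3K4me3 alone, the replicate 2 means were 86.5% in the first stretch and 56.4% in the next. They were 22.9% in the one after and 9.46% in the last. On 1091 genes with both marks, the means were 68.3%, 71.7%, 44.9% and 13.3%. These are stretches of scaled bodies, and genes with both marks are shorter, while their H3K4me3 islands had a median width of 1000 bp in each replicate against 1000 and 1200 bp on genes with H3K4me3 alone. H3K27me3 on the same genes spread over all stretches, with means of 57.0%, 69.3%, 64.8% and 49.6% in replicate 1. In replicate 2 the means were 70.2%, 76.5%, 74.3% and 66.5%. Genes with H3K27me3 alone were covered more fully, with stretch means of 75.3% to 85.8% in replicate 1 and 86.3% to 93.2% in replicate 2.

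**Figure D2:**
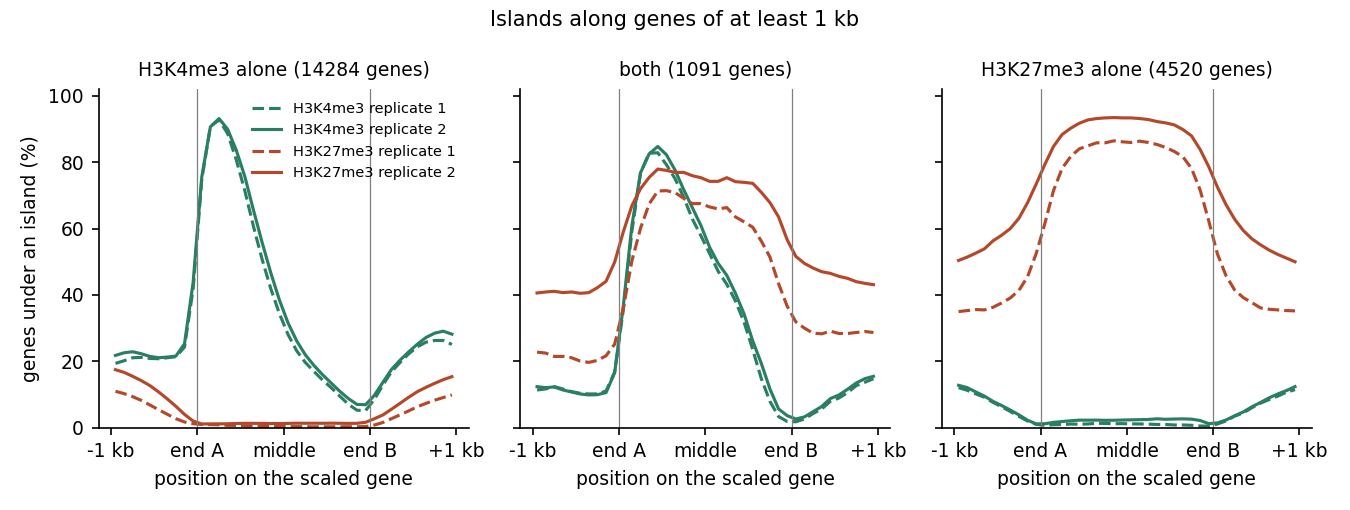
Percentage of genes under an island (y axis) along genes of at least 1000 bp scaled to a common length with 1000 bp on each side (x axis), for each mark and replicate, in 3 gene classes. End A is the end nearer the replicate 1 H3K4me3 islands, or the lower coordinate for genes with H3K27me3 alone. H3K4me3 lies near end A because the genes with it were turned that way, and H3K27me3 forms a plateau that is lower on genes with both marks than on genes with H3K27me3 alone.

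H3K27me3 covered a smaller share of a gene when H3K4me3 was there too. The median share of the body under H3K27me3 was 64.3% in replicate 1 and 83.3% in replicate 2 for genes with both marks, against 93.5% and 100% for genes with H3K27me3 alone. H3K4me3 covered a median of 48.2% and 51.0% of the body with both marks, and 37.7% and 40.7% alone. Shares of the body depend on gene length. Genes with both marks, at a median of 2108 bp, were shorter than those with H3K4me3 alone (2517 bp). They were longer than those with H3K27me3 alone (1582 bp), and the part of length in these shares was not tested. In 996 of the 1193 genes, 83.5%, both marks lay on the same 200 bp or more in both replicates, which is 3.63% of all genes. In 131 genes, 10.98%, no base was under both marks in either replicate. The median gene with both marks had 100% of its H3K4me3 bases under H3K27me3 in each replicate.

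H3K4me3 islands held fewer reads per kb on genes with both marks. In replicate 1 the median island density was 326 reads per kb on genes with both marks and 490 on genes with H3K4me3 alone, and in replicate 2 it was 699 and 960. The ratio of both to alone was 0.697 ± 0.044 (SD, n = 2), below 1 in 2 of 2 replicates. H3K27me3 differed less, with 187 against 202 reads per kb in replicate 1 and 706 against 798 in replicate 2, a ratio of 0.905 ± 0.029 (SD, n = 2). Control reads on the same islands were close between classes, at 263 and 260 per kb for H3K4me3 replicate 1 and 415 and 431 for replicate 2. For H3K27me3 they were 248 and 230 per kb in replicate 1 and 228 and 217 in replicate 2, higher on the genes with both marks.

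**Figure D3:**
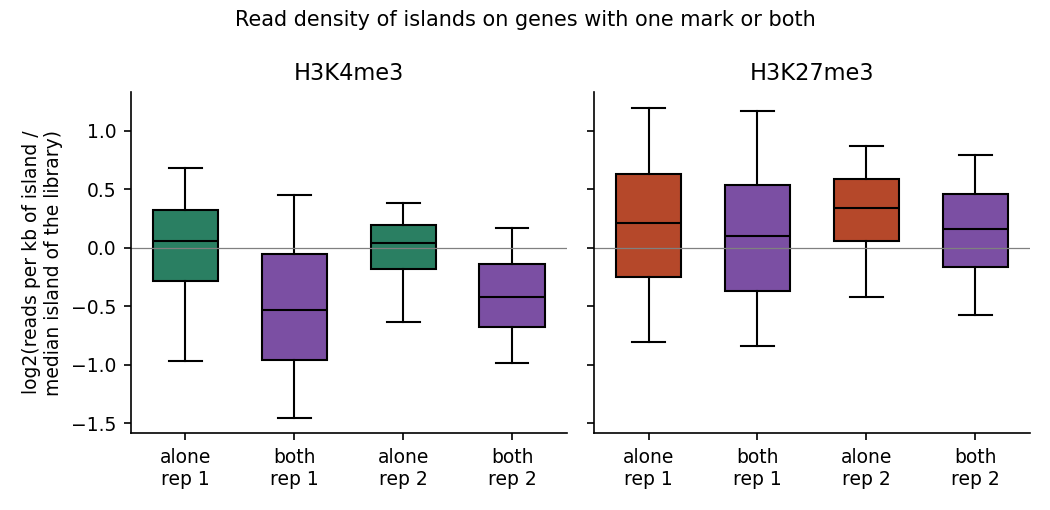
Read density of islands per gene, as log2 of reads per kb of island over the median island of the library (y axis), by class and replicate (x axis), for H3K4me3 (left) and H3K27me3 (right). Boxes span the quartiles with the median as a line and whiskers reach the 5th and 95th percentiles of genes. The H3K4me3 medians of genes with both marks are -0.53 and -0.42, below those of genes with H3K4me3 alone at 0.05 and 0.04.

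Genes of a class often adjoined each other. One island can mark several neighbours, so part of this follows from the marking rule, and how much was not tested. Islands that touched 3 or more genes were 3.77% and 8.05% of H3K27me3 islands and 1.3% and 1.5% of H3K4me3 islands. A direct neighbour with H3K4me3 alone was found for 85.8% of genes with H3K4me3 alone and for 77.1% of all genes. A direct neighbour with H3K27me3 alone was found for 64.2% of genes with H3K27me3 alone, for 48.8% of genes with both marks, for 28.4% of genes with H3K4me3 alone and for 36.9% of all genes. The longest unbroken row of genes with H3K27me3 alone held 23 genes, from AT3G21880 to AT3G22060, and it takes in the region of the widest island. A gene with both marks adjoined 16.9% of the genes with both marks and 8.41% of all genes. Rows of 3 or more held 3.27% of the genes with both marks, and their longest row was 6 genes, AT3G12410 to AT3G12470. Such rows held 36.5% of genes with H3K27me3 alone and 68.3% of genes with H3K4me3 alone. The 3 classes hold 4.35%, 21.6% and 54.5% of genes, and larger classes form rows more easily. The share in rows under random placement was not computed.

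Floral organ identity genes were split between both marks and H3K27me3 alone. Of 16, 7 carried both, 7 carried H3K27me3 alone and 2 carried H3K4me3 alone. The 7 with both were the MADS-box genes AP1, AP3, PI, SEP1, SEP2, SEP3 and FUL, which act in the identity of sepals, petals, stamens, floral meristems or the fruit. H3K27me3 alone lay on AG, STK, SHP1, SHP2, AGL6, CAL and AGL13, among which AG specifies stamens and carpels, STK ovules, and SHP1 and SHP2 the valve margin of the fruit. AP2 and SEP4 carried H3K4me3 alone, and SEP4 had H3K27me3 on 38.3% of its body in replicate 2 and none in replicate 1. Of all genes with H3K4me3 alone, 4.98% had H3K27me3 in 1 replicate. All 7 genes with both marks had the marks on the same 200 bp in both replicates.

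The petal and stamen genes AP3 and PI had narrow H3K4me3 islands inside wide H3K27me3 islands. On AP3, H3K4me3 lay at chr3:20120601-20121200 in replicate 1 and chr3:20119801-20121200 in replicate 2, and H3K27me3 at chr3:20118601-20121400 and chr3:20118601-20121600. The AP3 H3K4me3 islands held 141 ChIP reads against 170 control reads in replicate 1 and 861 against 505 in replicate 2, which the authors give as 2.29-fold and 2.19-fold after their scaling. Its H3K27me3 islands were 5.18-fold and 4.59-fold over control. Folds of different marks come from different antibodies and are not ranked against each other. On PI, H3K4me3 covered 15.3% and 38.3% of the body and H3K27me3 95.6% and 100%. PI had H3K4me3 at 2.01-fold and 1.97-fold and drops to H3K27me3 alone when 2-fold is required.

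SEP3, a cofactor in petal, stamen and carpel identity, also had both marks on the same stretch. Its H3K4me3 island was 2000 bp wide at chr1:8594001-8596000 in replicate 1 and 1600 bp wide at chr1:8594401-8596000 in replicate 2, 3.95-fold and 3.04-fold over control. H3K27me3 on SEP3 lay at chr1:8592401-8596400 and chr1:8593601-8598400, 2.93-fold and 4.57-fold over control. Relative to the median island of each library, the density on SEP3 was 0.63 and 0.86 for H3K4me3 and 0.74 and 1.19 for H3K27me3. AP1, which sets floral meristem identity, had relative densities of 0.53 and 0.82 for H3K4me3 and 0.68 and 1.39 for H3K27me3. All 7 genes with both marks had H3K4me3 below the median island in both replicates, and 6 of the 7 kept both marks when islands of 2-fold or more were required.

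AG fell short of the class with both marks by one library. It had no H3K4me3 island in replicate 1 and an 800 bp island at chr4:10383401-10384200 in replicate 2, 1.84-fold over control. H3K27me3 covered 100% of AG in each replicate, at 5.06-fold and 5.75-fold, under islands of 7200 and 10000 bp. The presence of H3K4me3 on AG therefore rests on the deeper library. AGL6, a MADS-box relative of the SEP genes, was alike, with H3K4me3 on 25% of its body in replicate 2 alone.

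Meristem and inflorescence genes showed a like split, with 8 of 20 carrying both marks, 10 carrying H3K27me3 alone, 2 carrying H3K4me3 alone and 0 carrying neither. The class I KNOX homeobox genes that maintain the shoot meristem, STM, KNAT1, KNAT2 and KNAT6, all carried both. So did their BELL partner BLH9 and the AP2-type growth regulators ANT, AIL6 and AIL7. H3K27me3 alone lay on the stem cell genes WUS and CLV3, the organ boundary genes CUC1, CUC2, CUC3 and LAS, the inflorescence and flower meristem genes TFL1, LFY and UFO, and BLH8. The receptor kinase gene CLV1 and the bZIP factor gene FD carried H3K4me3 alone. FD, at 2.02-fold in replicate 1 and 1.88-fold in replicate 2, had neither mark when islands of 2-fold or more were required.

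On STM, H3K4me3 lay at chr1:23060601-23061600 and chr1:23060201-23061600, 1.82-fold and 1.77-fold over control. H3K27me3 lay at chr1:23057601-23063800 and chr1:23058601-23062600, 5.63-fold and 6.06-fold. Its relative densities were 0.36 and 0.59 for H3K4me3 and 1.54 and 1.88 for H3K27me3, so STM was under the median island for one mark and over it for the other in each replicate. KNAT1 had 0.56 and 0.62 for H3K4me3 and 0.85 and 0.88 for H3K27me3, below the median for both marks. BLH9 had H3K4me3 at 1.48 and 1.06 times the median island and H3K27me3 at 1.14 and 0.80. With islands of 2-fold or more, 4 of the 8 kept both marks, STM and AIL6 kept H3K27me3 alone, and KNAT1 and ANT kept H3K4me3 alone.

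Among the 10 meristem genes with H3K27me3 alone, 5 had H3K4me3 in 1 of the 2 replicates, against 7.65% of all genes with H3K27me3 alone. LFY and UFO had it in replicate 1, on 63.5% and 79.1% of the body, and none in the deeper replicate 2. WUS, CUC1 and BLH8 had it in replicate 2 alone, on 20.6%, 65.7% and 29.4%. The WUS island was 400 bp wide with 208 ChIP reads, 1.47-fold over control. CUC2, CUC3, CLV3, TFL1 and LAS had no H3K4me3 island on the body in either replicate. H3K27me3 on CUC2 was at 2.58 and 1.53 times the median island, under islands at chr5:21899201-21904000 and chr5:21899001-21910000.

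**Figure D4:**
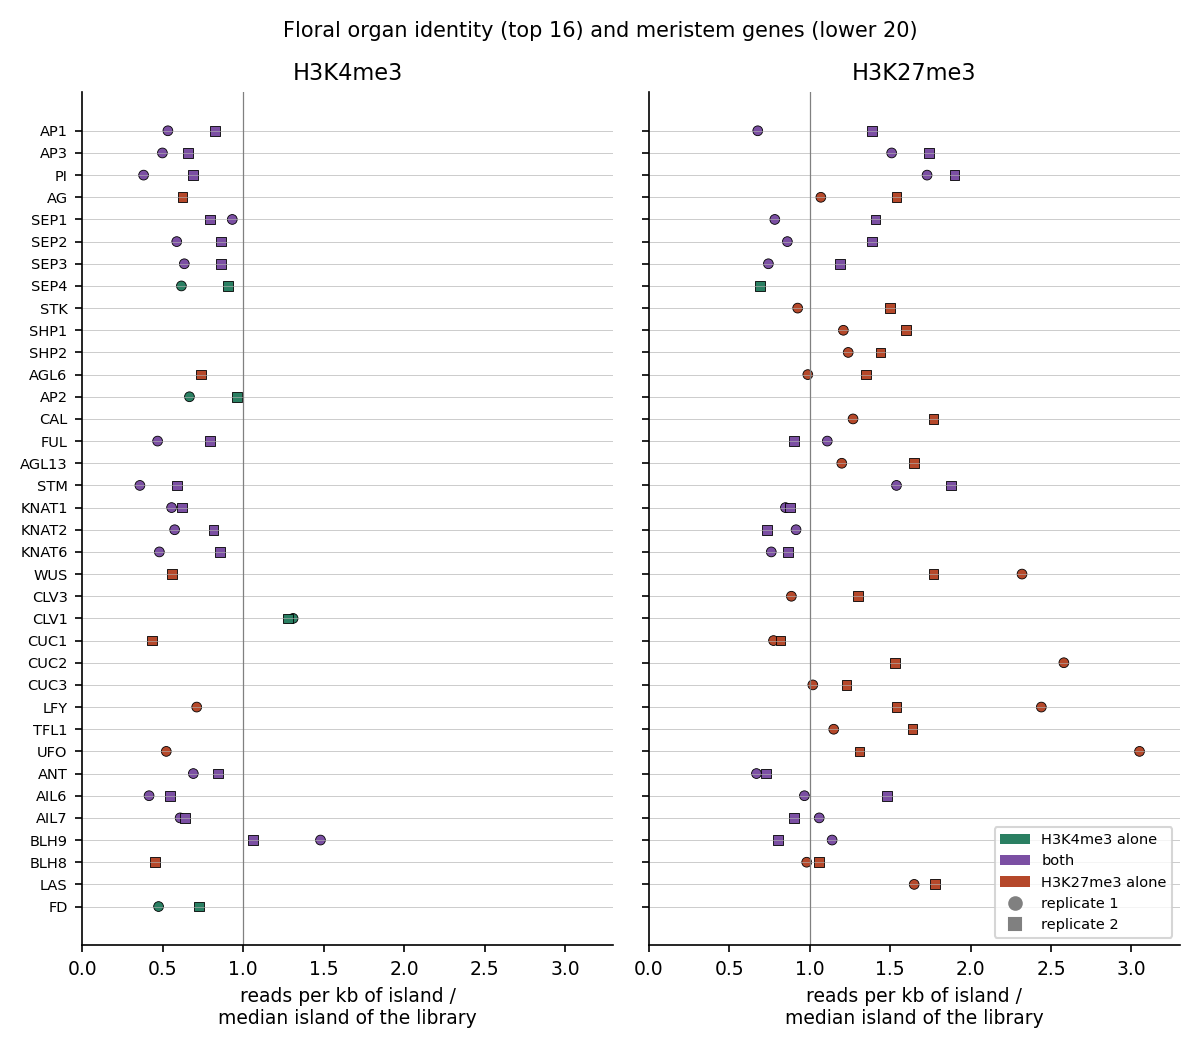
Read density of islands on floral organ identity genes (upper 16) and meristem genes (lower 20), as reads per kb of island over the median island of the library (x axis), for H3K4me3 (left) and H3K27me3 (right), with replicate 1 as circles and replicate 2 as squares, coloured by class. A missing symbol means under 200 bp of island on the body. Of the 15 genes with both marks, BLH9 alone has H3K4me3 above 1, at 1.48 and 1.06.

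Flowering-time genes carried H3K27me3 alone on 9 of 18, both marks on 4 and H3K4me3 alone on 5. FLC, the MADS-box repressor of flowering that cold silences through Polycomb, had H3K27me3 on 100% of its body in each replicate, at 1.89 and 1.78 times the median island. FLC had H3K4me3 on 6.59% of the body in replicate 2 and none in replicate 1. AGL24 also had it in replicate 2 alone, and RAV2 and SMZ in replicate 1 alone. These were 4 of the 9 with H3K27me3 alone, against 7.65% of all genes with H3K27me3 alone. The florigen genes FT and TSF had H3K27me3 and no H3K4me3 island. SOC1 and SVP, MADS-box genes that promote and delay flowering, and TEM1 and MAF5 carried both marks. With islands of 2-fold or more, SOC1 and SVP kept both marks. TEM1, at 1.99-fold for H3K27me3 in replicate 2, kept H3K4me3 alone. MAF5, at 1.61-fold for H3K4me3 in replicate 2, kept H3K27me3 alone. The FLC relatives MAF1, MAF2 and MAF3 were counted as H3K4me3 alone because H3K27me3 was absent in replicate 1, while it covered 100%, 99.2% and 100% of them in replicate 2. CO and GI, of the photoperiod pathway, had H3K4me3 and no H3K27me3 island.

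Organ polarity and growth genes fell into 3 classes. The HD-ZIP III genes PHB, PHV and REV, which specify the upper side of organs, carried H3K4me3 alone, and no H3K27me3 island touched them. Genes of the lower side, FIL, YAB3, KAN1 and KAN2, carried both marks, and YAB2 and YAB5 carried H3K27me3 alone. FIL and YAB3, at 1.97-fold and 1.91-fold for H3K4me3 in replicate 2, kept H3K27me3 alone when islands of 2-fold or more were required. YAB2 had H3K4me3 on 4.99% of its body in replicate 1 alone, at 4.35-fold. KAN1 had relative densities of 1.07 and 1.04 for H3K4me3 and 1.04 and 1.54 for H3K27me3, at or above the median island for both marks. Genes of carpel and ovule development, CRC, INO, HEC1 and HEC2, and the boundary genes SUP and RBE carried H3K27me3 alone with no H3K4me3 island. Others with such roles did not: the carpel gene SPT carried H3K4me3 alone, the style genes NGA1 and NGA3 and the boundary gene PTL carried both marks, and STY1, with H3K27me3 alone, had H3K4me3 on 35.1% of its body in replicate 2. In all, 7 of 23 carried both marks, 11 H3K27me3 alone and 5 H3K4me3 alone. With islands of 2-fold or more, 4 of the 7 kept both marks and 3 kept H3K27me3 alone.

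Hormone genes were also spread over 3 classes, 6 of 20 with both marks, 8 with H3K27me3 alone and 6 with H3K4me3 alone. The auxin efflux carriers PIN3 and PIN4 carried both, and PIN2, known from the root, carried H3K27me3 alone. The auxin synthesis genes YUC1, YUC2 and YUC4 carried H3K27me3 alone over 93.6% to 100% of the body, and YUC6 and TAA1 carried both. With islands of 2-fold or more, 4 of the 6 with both marks kept them. TAA1 kept H3K27me3 alone and PIN3 kept H3K4me3 alone. MP and ETT, auxin response factors, and the type-A cytokinin response regulators ARR5, ARR7 and ARR15 carried H3K4me3 alone. MP, ARR5 and ARR15 had neither mark when islands of 2-fold or more were required. H3K4me3 on MP was under 2-fold in each replicate, at 1.64-fold and 1.72-fold. ARR5, at 2.63-fold and 1.48-fold, and ARR15, at 2.39-fold and 1.67-fold, fell short in replicate 2 alone.

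Seed and root genes stood at the H3K27me3 end. Of 17 seed and embryo genes, 16 carried H3K27me3 alone and the remaining gene, L1L, carried neither. They include the embryo regulators LEC1, LEC2, FUS3 and ABI3, the storage protein genes CRA1, CRU2, CRU3 and SESA1, and the Polycomb genes of the endosperm MEA and FIS2. CRA1, a cruciferin, had H3K27me3 on 100% of its body at 3.78 and 2.06 times the median island. Of 12 root genes, 9 carried H3K27me3 alone, among them PLT1, PLT2, WOX5, CASP1 and SMB, 2 carried both and SCR carried H3K4me3 alone. The 2 with both were arranged differently. SHR had H3K4me3 on 64.4% and 73.6% of the body and H3K27me3 on 94.8% and 100%. GL2 had H3K4me3 on 9.81% in each replicate and no base of its body under both marks.

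Anther and pollen wall genes formed the list with the most members in neither class. Of 14, 5 carried neither mark, 7 carried H3K27me3 alone, 2 carried H3K4me3 alone and 0 carried both. The tapetum regulator DYT1 and the pollen wall synthesis genes MS2 and CYP704B1 had no island of either mark in any of the 4 libraries. AMS and MS1, later tapetum regulators, carried H3K27me3 alone. The receptor kinase gene EMS1 and LAP5 carried H3K4me3 alone, and neither kept it in both replicates when islands of 2-fold or more were required. LAP5 was under 2-fold in each replicate, at 1.58-fold and 1.26-fold. EMS1 fell short in replicate 2 alone, at 4.67-fold in replicate 1 and 1.96-fold in replicate 2. SPL, which starts sporogenous cells, had H3K27me3 on 100% of the body and H3K4me3 on 52.3% in replicate 2 alone.

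Housekeeping and photosynthesis genes stood at the H3K4me3 end. All 10 constitutive reference genes, such as ACT2, UBQ10, GAPC1 and PP2AA3, carried H3K4me3 with no H3K27me3 island in either replicate. Of 19 photosynthesis genes, 18 carried H3K4me3 alone. The exception, RBCS2B, a small subunit of Rubisco, had H3K27me3 on 91.9% and 100% of its body at 0.83 and 0.93 times the median island. RBCS1B and RBCS3B had H3K27me3 in replicate 2 alone. These RBCS genes are near-identical copies, so the assignment of reads among them is uncertain. CAB3, of the photosynthesis list, had H3K4me3 at 1.81-fold in replicate 1 and had neither mark when islands of 2-fold or more were required. Of 12 cell division genes, 9 carried H3K4me3 alone, CYCB1;2 carried both, and CYCB1;1 and KN had H3K4me3 in replicate 2 alone. With islands of 2-fold or more, CYCA1;1, CDKB1;1, CDKB2;1 and CYCB1;2 had neither mark. Mitotic genes were weakly marked: CYCA1;1 had H3K4me3 at 0.32 and 0.59 and CDKB2;1 at 0.35 and 0.68 times the median island.

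Genes of the marking machinery itself mostly carried H3K4me3. Of 22 Polycomb and Trithorax genes, 19 carried H3K4me3 alone, including the H3K27 methyltransferases CLF and SWN, the H3K27 demethylases REF6 and ELF6 and the H3K4 methyltransferases ATX1, ATX2 and SDG2. EMF1, a Polycomb-associated protein, and ULT1, a Trithorax-type factor that acts in floral meristems, carried both marks. ULT1 had H3K4me3 on 71.0% and 42.6% of its body and H3K27me3 on 56.8% and 63.9%. VIN3, the cold-induced partner of Polycomb in FLC silencing, carried H3K27me3 alone, and no H3K4me3 island touched it. CLF and ATX1 had H3K27me3 in the shallower replicate 1 alone, at 0.46 and 0.54 times the median island.

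**Figure D5:**
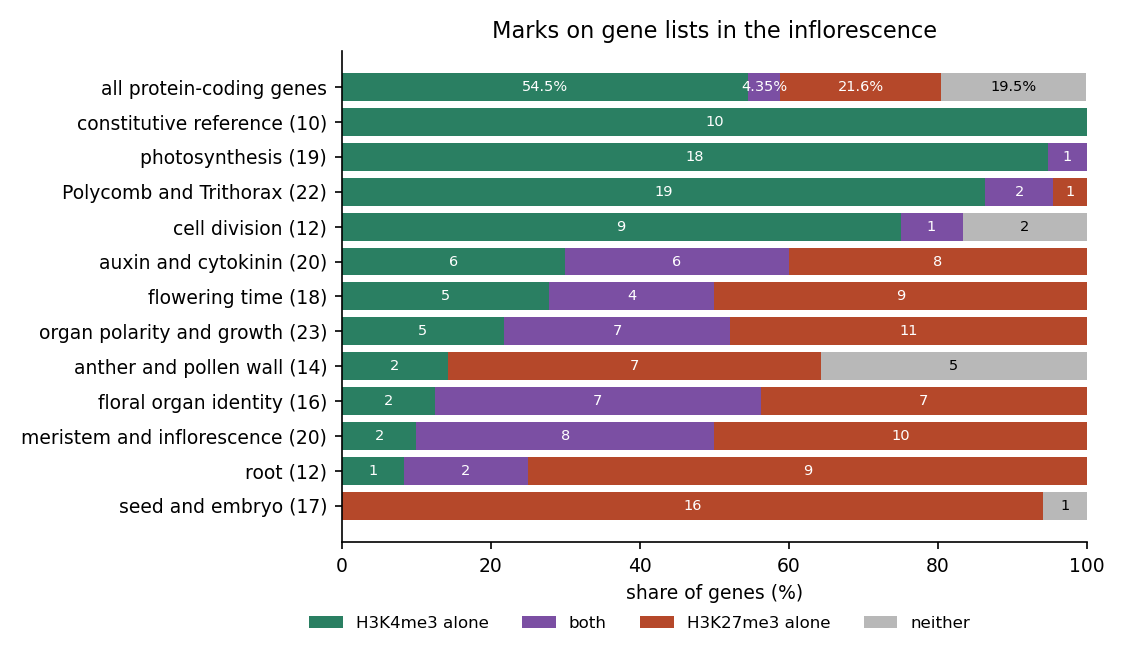
Share of genes (x axis, %) with H3K4me3 alone, both marks, H3K27me3 alone or neither in each gene list (y axis, number of genes in brackets), with counts inside the bars and all protein-coding genes on top. Constitutive reference genes are all H3K4me3 alone, 16 of 17 seed genes are H3K27me3 alone, and both marks lie on 7 of 16 floral organ identity and 8 of 20 meristem genes against 4.35% of all genes. The lists were chosen with earlier results of these data known, so their shares are description only.

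Over the 203 genes of the 12 lists, 79 carried H3K4me3 alone, 78 H3K27me3 alone, 38 both and 8 neither. Of the 38 with both marks, 37 had them on the same 200 bp in both replicates, and 31 had H3K4me3 below the median island in both replicates. Requiring 2-fold islands left 25 of the 38 with both marks, 8 with H3K27me3 alone and 4 with H3K4me3 alone, and CYCB1;2 with neither.

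Gene families, grouped by the start of their symbols, were placed in the same way. Families of transcription factors differed. H3K27me3 alone was the larger class in some: of 125 MYB genes 76 carried it alone, of 99 NAC genes 51, and of 14 WOX homeobox genes 10. H3K4me3 alone was the larger class in others, as it was over all genes, at 54.5% against 21.6% with H3K27me3 alone. It lay on 18 of 29 GATA genes against 6, and on 23 of 47 homeobox genes with an HB symbol against 11. It lay on 11 of 25 ERF genes against 5 and on 10 of 22 TCP genes against 5. The HB, ERF and TCP genes were below the 54.5% of all genes, and the GATA genes above it. For H3K27me3 alone, HB and TCP genes were slightly above the 21.6% of all genes, and GATA and ERF genes slightly below. The MYB, NAC and WOX genes were further above it. Signalling peptides of the CLE family carried H3K27me3 alone in 19 of 30 genes, and gibberellin oxidases in 12 of 16. TCP factors, which control cell proliferation, had both marks on 7 of 22, ERF factors on 7 of 25, and the HB genes on 10 of 47. Cytochrome P450 genes, enzymes of specialised metabolism and hormones, carried H3K27me3 alone in 109 of 234 and both marks in 31. H3K4me3 alone lay on 48 of 49 ribosomal protein genes, 18 of 20 histone genes and 32 of 36 ubiquitin-conjugating enzyme genes. Of 90 defensin-like genes, 62 (68.9%) carried neither mark, against 19.5% of all genes. Genes with neither mark had the smallest median length of the classes, and the part of gene length in this share was not tested.

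The densest islands were found on genes of different roles. Among genes with a symbol and H3K4me3 alone, FLA8, a fasciclin-like arabinogalactan protein, had 1196 and 1507 reads per kb, 2.53 and 1.61 times the median island. CDA1, a cytidine deaminase, and GAE6 and GAE1, which make UDP-galacturonate for pectin, followed at 2.32 to 2.42 times in replicate 1 and 1.54 to 1.63 in replicate 2. For H3K27me3 alone, the cation exchanger gene CHX24 had the highest mean rank over the replicates, at 3.88 and 2.18 times, with NAC006 at 3.63 and 2.18. VGDH1 was higher than both in replicate 1, at 4.3 times, and NAC105 in replicate 2, at 2.25 times. EXO70H4, an exocyst subunit, and the dehydrin gene RAB18 ranked among the 10 densest for H3K27me3 and also had H3K4me3 in replicate 2, at 0.52 and 0.73 times the median. Densities of different marks come from different antibodies and are not levels on a common scale.

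Among the 10 genes with a symbol that were densest for both marks, RGP2, PMH2 and GL2 held them side by side. RGP2, of cell wall sugar metabolism, had H3K4me3 on 52.5% and 46.2% of its body and H3K27me3 on 22.2% in each replicate, with no base under both. PMH2, a mitochondrial RNA helicase, was alike, with 36.5% and 36.5% under H3K4me3, 23.4% and 16.7% under H3K27me3, and no shared base. PDX1.1, of vitamin B6 synthesis, differed: H3K4me3 covered 77.9% and H3K27me3 86.9% in each replicate, with 1000 bp under both. ELI3-1, a defence-related dehydrogenase with both marks, lay under H3K27me3 islands of 11800 and 15600 bp, and its H3K4me3 islands were 600 and 1200 bp wide. BEN1, also with both, had H3K27me3 islands of 1400 and 26200 bp, so its width rests on replicate 2. For H3K27me3 alone, GA20OX2, a gibberellin oxidase, lay under islands of 13200 and 27800 bp and TCP12, a regulator of axillary branching, under 15000 and 22000 bp.

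Most genes with neither mark had no island at all. Of the 5358, 3074 (57.4%) were touched by no island in any of the 4 libraries, and these had a median length of 1078 bp. A mark in 1 replicate was found on 1997 (37.3%), and 229 genes were shorter than 200 bp and could not pass. The longest with a symbol, GMI1, GSL11 and ABCC11, each had H3K4me3 in replicate 2 alone, on 8.77% to 8.97% of the body, while ABCC13 and ABCG30 had none.

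Genes with both marks in the inflorescence were compared with 3 other stages, whose libraries the sorting had not used. These were rosette leaves of wild-type plants, inflorescence-like apices of ap1-1 cal-1 plants carrying 35S::AP1:GR without treatment, and such apices 2 days after 10 µM dexamethasone. The ap1-1 cal-1 mutant piles up meristems, and dexamethasone lets the AP1 fusion protein enter the nucleus, so these apices differ from the inflorescence in genotype as well as in stage. ChIP reactions used 15 µg of chromatin from the apices and 10 µg from wild-type tissue, and the part of this in the values was not tested. Of the 1193 genes, 77.5% also had both marks in untreated apices, 77.0% in treated apices and 47.0% in leaves. Over all 27432 genes, both marks lay on 1643 in untreated apices, 1636 in treated apices and 923 in leaves. Fewer of the 1193 could therefore match in leaves, and the part of class size in these shares was not tested. In leaves, 23.4% had H3K4me3 alone, 28% had H3K27me3 alone and 1.59% had neither. Both marks in all 4 stages were found on 456 genes (38.2%), and in the inflorescence and no other stage on 153 (12.8%). Of genes with H3K4me3 alone 93.7% had the same class in leaves, and of genes with H3K27me3 alone 84.8%. Over all genes, these classes held 14699 and 5691 genes in leaves. The leaf and inflorescence libraries of a mark and replicate shared a control, as the control count was the same on every island of equal bounds, 659 to 6217 islands per pair of libraries.

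The share of H3K27me3 genes that also had H3K4me3, counted in each replicate, was 21.1% and 23.7% in the inflorescence. It was 20.6% and 27.7% in leaves, 23.0% and 29.1% in untreated apices and 23.4% and 25.6% in treated apices. Replicate 2 was higher in 4 of 4 stages, and the ranges of the stages overlapped. With each mark required in both replicates, the share was 16.7% in the inflorescence, above leaves at 14.0%. It was below untreated apices at 20.9% and treated apices at 20.8%, so the other stages lay on both sides. The test below used the shares counted in each replicate. The inflorescence had a mean of 22.4% ± 1.9 (SD, n = 2) and the other stages 24.9% ± 3.2 (SD, n = 6), a difference of -2.51 percentage points with an exact permutation p of 0.429 (two-sided, 28 regroupings, smallest possible p 0.0357). Permuted within replicate numbers, the p was 0.188, where the smallest possible is 0.0625. The difference was within the spread between libraries.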

How the data were processed

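Chromatin was profiled for H3K4me3 and H3K27me3 in 2 biological replicates per mark. Per the labels' protocols, replicate 2 had longer sonication and pooled technical ChIP reactions on the same extract, and other antibody lots and library kits, so the replicate number marks a batch shared by the marks. Per the submitters' processing notes, which state no roles, the tools were SICER 1.1, a caller that joins enriched windows into islands, BWA 0.6.2-r126, CASAVA 1.8.2, bedtools 2.17.0-97, Picard 1.93 and SAMtools 0.1.19, on TAIR10. The deposited tables of the authors hold 1 list of islands per library, with ChIP read count, control read count, p-value, fold and adjusted p-value. Window, gap and threshold settings are not given in the sources used here. Read density is ChIP reads per kb of island, weighted by overlap with the gene, and comparisons stay within a library.

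Islands were placed on 27432 protein-coding nuclear genes of a RefSeq table (assembly TAIR10.1, symbols for 10362), whose positions were checked: in 115 of 115 bins of 1 Mb the overlap with H3K4me3 islands was largest without an offset. Offsets of up to 2000 bp were tried in steps of 500 bp. That table gives no strand here, and no sequence was used. Gene counting was tested on simulated data (2000 genes). All 203 list members matched a locus. Members, lists and families were chosen with earlier results of these data known. Named genes are list members, the 10 densest and 5 widest genes with a symbol per class, and the 5 longest with neither. Other families and regions were named after their values were seen. The class sizes were computed again with 100 and 500 bp, 50% of the body, 2-fold islands, either replicate, equal island numbers and without each library. Tools were Python 3.11.15, numpy 2.4.6, pandas 2.3.3 and matplotlib 3.10.9.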

Additional observations from a re-analysis of the deposited data

Results flagged for a closer look

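An island outside the nuclear chromosomes was listed in 1 library. In inflorescence H3K4me3 replicate 2, 1 island spanned the plastid genome from position 1 to 154400, with 288494 ChIP reads against 307386 control reads and 1.21-fold over control by the authors' value. It held 1.65% of the island reads of that library. The plastid has no histones, and 0 of the other 3 inflorescence libraries listed such an island. It was left out of every value above.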

How the results depend on the processing

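Genes with H3K27me3 alone stayed within 1.5 times of 5934 under all 11 alternatives run. Requiring 50% of the body moved H3K4me3 alone to 4564, both to 392, neither to 16900 and both on the same bases to 362, since H3K4me3 islands cover less than that of most bodies. Islands of 2-fold or more gave 594 genes with both marks, 465 on the same bases, and an H3K4me3 density ratio of 0.806. With either replicate sufficing, 2558 genes had both, 3361 neither and 2097 both on the same bases. Adding 500 bp on both sides, an alternative chosen after seeing the data, gave 2513 with both. The planned region upstream of genes was not run, for lack of strand. The authors' fold in place of reads per kb gave an H3K27me3 ratio of 0.84. Leaving out each library gave 1335 to 1689 genes with both, 14451 to 15460 with H3K4me3 alone, 5622 to 7080 with H3K27me3 alone, 4212 to 5132 with neither, 1149 to 1366 on the same bases, ratios of 0.666 to 0.728 and 0.884 to 0.926, and stage differences of -3.83 to -1.19. With the replicate number as a block the stage difference was -2.51 with an exact permutation p of 0.188. H3K27me3 replicate 1 had the fewest island reads, and a missing island is no measured absence in any library. For other moved values the cause was not tested.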

Other observations

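The longest row of genes with neither mark held 97 genes on chromosome 2, from AT2G07565 to AT2G07680. Of these, 3 had a symbol of their own, ABCI5, ABCI4 and ABCC13. A missing island is no measured absence, so the row is not read as a domain free of both marks. Whether reads map uniquely in this row was not tested. On chromosome 4, inflorescence H3K4me3 replicate 2 listed an island of 50600 bp at chr4:3965001-4015600, 1.07-fold over control, which touched no protein-coding gene. H3K27me3 replicate 1 listed an island of 22200 bp within it, at chr4:3965601-3987800, 1.41-fold over control. A region at chr3:14191601-14205400 was the widest H3K4me3 island of replicate 1, 1.99-fold over control, and replicate 2 listed chr3:14191601-14205200 at 1.28-fold. Each of these touched 1 gene, AT3G41762.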
